A study of Danio rerio with 9 samples.

Results

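The respiratory chain of the inner mitochondrial membrane is built from 4 electron-carrying complexes and the ATP synthase, which is counted as complex V. Transcripts for its nuclear-encoded parts were examined in sorted cells of 2 zebrafish leukaemia models, labelled as T-lymphoblasts in both. Members were chosen by gene symbol alone, taking every probe set annotated with exactly 1 symbol that starts with nduf (complex I), sdha to sdhd (complex II), uqcr or cyc1 (complex III), cox4 to cox8 (complex IV) or atp5 (complex V). This gave 93 probe sets for 86 of the 8793 named genes on the array, and a gene with several was represented by its brightest probe set, by the mean of the 9 arrays. By complex, 39 genes fell in I, 7 in II, 8 in III, 14 in IV and 18 in V. The symbols also take in 9 assembly factors of complexes I and II, 2 inhibitors of the ATP synthase and 1 factor that joins complexes III and IV. These are included in the counts and medians of the 86 genes and of their complexes, and their role is named where they are described.

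The samples were 6 hMYC-ER and 3 hlk preparations of sorted GFP-positive cells from the bodies of fish at the end of the disease, with 1 array each. In hMYC-ER the human MYC protein is fused to the hormone-binding part of the oestrogen receptor, and hlk is a heritable line that develops T cell malignancy. The labels give no promoter, inducing treatment, age or litter for either model, and do not say whether each array stands for a separate fish, so the p-values reflect only how these samples vary, and that variation may be technical. Arrays are called by their labelled sample number, with 1 to 6 from hMYC-ER fish and 7 to 9 from hlk fish.

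Complex I takes electrons from NADH and complex II takes them from succinate, both pass them to ubiquinone, complex III hands them on to cytochrome c, and complex IV delivers them to oxygen. The proton gradient made by complexes I, III and IV drives the rotary ATP synthase. Most subunits are encoded in the nucleus, and a few catalytic ones are encoded by mitochondrial DNA and are outside the chosen symbols. MYC is known to raise many genes of mitochondrial biogenesis in other systems, and proliferating lymphoid cells use respiration together with glycolysis.

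Signals are given as log2 of the normalized array signal, with a floor at 4 on that scale, so a difference of 1 is a 2-fold change. Of the 86 genes, 85 lay above the floor on all 9 arrays. The exception was cox4i2, the subunit 4 isoform known from hypoxic cells in mammals, at 4.00 to 5.45 in hMYC-ER and 4.00, 4.74 and 5.18 in hlk. The array medians ran from 88.9 to 110.3 before normalization. Array 7 of hlk stood apart in RNA quality, since the gapdhs control had a signal ratio of its 3' end to its 5' end of 50.8 there, against 2.20 to 4.50 on the other 8 arrays. Values without this array are given beside the results that it moved most.

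The markers go against the labelled cell type in the hMYC-ER samples. Of the T cell receptor gene trac, the signal was 6.26 to 8.88 in hMYC-ER and 12.06, 10.13 and 12.65 in hlk, while the immunoglobulin light chain gene igl1c1 was at 13.91 to 14.20 in hMYC-ER and at 5.86, 6.62 and 6.50 in hlk. In all, 7 of 15 listed T cell markers were measured, and 0 of them passed towards hMYC-ER and 2 towards hlk. Of the 7, 3 had differences towards hMYC-ER that did not pass (rag2 1.25, cd28 0.28 and lef1 0.22), and 4 went towards hlk. The summed signal of the 7 was 2880 to 6460 in hMYC-ER and 13800 to 20300 in hlk. By mean, the brightest of them in both models was ptprc, at 11.75 in hMYC-ER and 12.54 in hlk. Its difference of -0.79 did not pass. On every hMYC-ER array ptprc was the brightest of the 7, so it weighs most in the sum there. Some listed markers are not confined to 1 lineage, among them ptprc, rag1 and rag2. The sum of the 7 is therefore not T cell signal alone. Of 14 listed B cell markers 9 were measured and all 9 were higher in hMYC-ER, with summed signals of 57200 to 71200 in hMYC-ER and 5390 to 8370 in hlk. None of the measured members of either list lay at the floor on all 9 arrays, while pax5, a defining B cell gene, was at the floor on hlk arrays 8 and 9. The measured erythroid (8), myeloid (9), thrombocyte (4), skeletal muscle (17), vascular and stromal (6) and epithelial (7) markers had 0 calls in either direction. The differences below are therefore between cells that also differ in these markers. The part of cell identity and composition in them was not tested, and in sorted bulk samples fewer cells of a type cannot be told apart from less RNA per cell.

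Most respiratory chain genes differed little between the models. Of the 86 genes, 7 passed as higher in hMYC-ER and 7 as higher in hlk (limma, Benjamini-Hochberg adjusted p under 0.05 over all 15502 probe sets), and 72 did not pass. Among all named genes 21.1% passed, 10% towards hMYC-ER and 11.1% towards hlk, beside 16.3% of the respiratory chain genes. Without hlk array 7 these shares were 21.4% of all genes and 20.9% of the respiratory chain genes, and no test compared them. The median difference, hMYC-ER minus hlk, was -0.06 over these genes and -0.08 over all genes. Of the 74 structural subunits alone, 5 passed towards hMYC-ER and 5 towards hlk (13.5%), with a median difference of -0.08. A difference of under 0.5 in size was found for 61 of the 86 (70.9%, against 55.6% of all genes), and one of more than 1 for 6 (6.98%, against 18.7% of all genes). All genes were not matched to the members in signal level, and the part of signal level in these shares was not tested. Among the 72 genes that did not pass, the 95% interval of the difference lay within a 2-fold change in both directions for 61. The ranges of the models did not overlap for 21 of the 86 genes, 9 with hMYC-ER higher and 12 with hlk higher, and these include all 14 that passed. Of all genes 23.1% did not overlap, 10.7% with hMYC-ER higher and 12.5% with hlk higher.

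**Figure D1:**
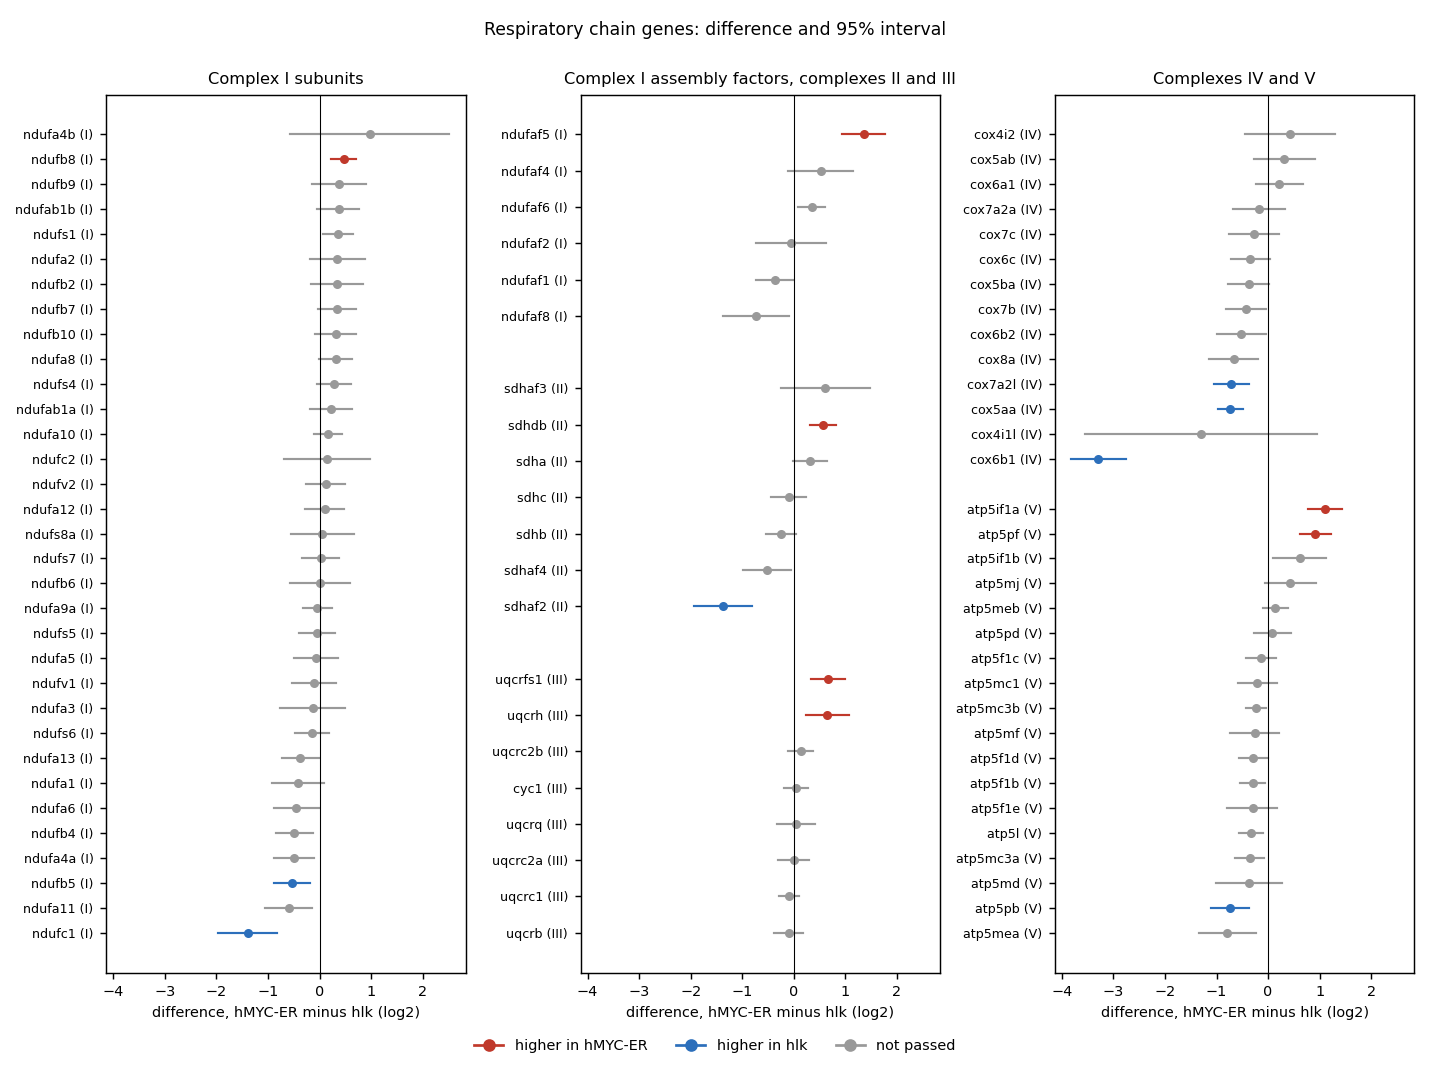
Difference between the models for each of the 86 genes (x axis, hMYC-ER minus hlk in log2 units; point, estimate; line, 95% interval), ordered within each complex, which is given in parentheses. Red points passed as higher in hMYC-ER (7), blue points as higher in hlk (7) and grey points did not pass (72); cox6b1 stands far from all others at -3.29.

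The counts of genes that passed moved with single arrays. Without hlk array 7, 12 genes passed towards hMYC-ER, where 11% of all genes did, and 6 towards hlk, where 10.3% did (20.9% in all, with a background of 21.4%). Without hlk array 8 only 4 were higher in hMYC-ER, and without hMYC-ER array 1 the count higher in hlk was 11. In all, 16 genes outside the 14 passed in 1 of the 9 fits that left out 1 array. The 5 that did so without hlk array 7 were all higher in hMYC-ER, and of the 11 that did so without another array 10 were higher in hlk. These 10 were ndufa6, atp5l, atp5mc3a and atp5mea without hMYC-ER array 1, cox8a without hMYC-ER array 4, ndufa11, sdhaf4 and cox6b2 without hlk array 8, and ndufb4 and cox5ba without hlk array 9. The remaining gene, ndufaf6, passed towards hMYC-ER without hlk array 9. Centring each array on its median in place of quantile normalization gave 4 calls towards hMYC-ER and 10 towards hlk. Over all 8793 genes it gave 769 and 1102 calls, against 881 and 978 in the main fit. It moved the median of all genes to -0.18 and that of the respiratory chain genes to -0.21.

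Complex I, the largest of the 5, was spread around no difference in the fit of all 9 arrays. Of its 39 genes, 2 passed towards hMYC-ER, 2 passed towards hlk and 35 did not pass (10.3% passed, against 21.1% of all genes). The median difference was 0.05, with 22 genes above and 17 below 0. It turned to -0.08 when arrays were centred on their medians, where that of all genes was -0.18, and to -0.01 without hlk array 8. Without hlk array 7 it rose to 0.16, where that of all genes was -0.03, with 26 genes above and 13 below 0. In that fit 5 genes passed towards hMYC-ER and 1 towards hlk (15.4% in all, against 21.4% of all genes). None of the 5 core subunits, which carry the flavin and the iron-sulphur clusters, passed. The difference was 0.35 for ndufs1 (interval 0.07 to 0.64), 0.12 for ndufv2 (-0.27 to 0.50), 0.05 for ndufs8a (-0.56 to 0.67), 0.02 for ndufs7 (-0.34 to 0.37) and -0.11 for ndufv1 (-0.54 to 0.32). A change of 2-fold or more lies outside all 5 intervals. The ndufs1 values were the only ones of the core without overlap, at 10.97 to 11.45 in hMYC-ER and 10.77, 10.90 and 10.90 in hlk.

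Accessory subunits surround the core and stabilise it. Of 28 measured, 1 passed towards hMYC-ER and 2 towards hlk (10.7% in all, against 21.1% of all genes). The membrane-arm subunit gene ndufb8 had a lowest, median and highest value of 12.06, 12.19 and 12.31 in hMYC-ER, against 11.91, 11.54 and 11.71 in hlk. Its groups did not overlap, and the difference of 0.47 (SE 0.11, adjusted p 0.0177) is 1.38-fold. That call ended under median centring (0.28, adjusted p 0.247) and without hlk array 8 (0.38, adjusted p 0.0512). In the opposite direction, ndufc1, the gene for a small membrane-arm subunit, stood at 9.20, 9.57 and 10.03 in hMYC-ER (lowest, median, highest) and at 11.37, 10.63 and 10.99 in hlk. All 3 hlk arrays were above every hMYC-ER array, and the models differed by -1.39 (SE 0.25, adjusted p 0.00574), and the gene passed in all 9 fits that left out 1 array. The other, ndufb5, also of the membrane arm, ran from 11.08 to 11.63 in hMYC-ER with a median of 11.28 and was at 12.09, 11.64 and 11.86 in hlk. Its values were separated by a narrow gap, with a difference of -0.53 (SE 0.15, adjusted p 0.0415) that passed in only 2 of the 9 fits that left out 1 array and was -0.42 (adjusted p 0.118) without array 7.

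A further 3 accessory subunit genes passed only when hlk array 7 was left out, all higher in hMYC-ER. These were ndufb9 (0.70, adjusted p 0.0191, against 0.38, adjusted p 0.321, on all arrays), ndufa8 (0.45, adjusted p 0.0319, against 0.31, adjusted p 0.170) and ndufs4 (0.43, adjusted p 0.0478, against 0.28, adjusted p 0.225). Loss of ndufs4 is a known cause of complex I deficiency in mammals. On array 7 each of them stood above the other 2 hlk arrays, for ndufb9 at 12.55 against 11.61 and 11.59. The duplicated acyl carrier genes ndufab1a and ndufab1b differed by 0.22 and 0.37 without passing, and all 3 probe sets of ndufab1a gave 0.22. The probe set used for ndufab1a is of a type that may also detect related transcripts. The pair ndufa4a and ndufa4b carries a complex I name, though the mammalian protein is now placed in complex IV. Neither ndufa4a (-0.50, interval -0.89 to -0.11) nor ndufa4b (0.97, interval -0.57 to 2.52) passed, and ndufa4b had values of 6.22, 9.80 and 8.42 in hlk, so that without array 7 its difference was 0.01.

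Among the 6 complex I assembly factors, ndufaf5 changed most. This gene encodes a methyltransferase-like enzyme known in mammals to hydroxylate a core subunit early in assembly. Its values were 10.06, 10.07 and 10.39 in hMYC-ER (lowest, median, highest) and 9.28, 8.44 and 8.64 in hlk. The hMYC-ER arrays were tightly grouped and all above hlk, a difference of 1.36 (SE 0.18, adjusted p 0.00156), or 2.56-fold, which passed in all 9 fits without 1 array and was the most positive difference among the 86 genes. The other 5 factors did not pass and lay on both sides of 0. Of these, ndufaf6 (0.35, adjusted p 0.0639) and ndufaf8 (-0.74, adjusted p 0.113) had separated groups, with ndufaf8 at 9.51 on array 7 and at 8.32 and 8.18 on the other hlk arrays.

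Complex II has 4 subunits, all nuclear-encoded, and doubles as succinate dehydrogenase of the citrate cycle. Of the 7 genes counted here, 1 passed towards hMYC-ER and 1 towards hlk (28.6% in all, against 21.1% of all genes). The median difference was -0.10, and -0.28 under median centring, where that of all genes was -0.18. One subunit gene, sdhdb, which encodes a membrane anchor at the ubiquinone site, was at 10.80, 10.93 and 11.13 in hMYC-ER (lowest, median, highest) and at 10.53, 10.40 and 10.17 in hlk. The groups did not overlap, and the difference of 0.56 (SE 0.11, adjusted p 0.00873) is 1.48-fold. The flavoprotein gene sdha (0.31, interval -0.02 to 0.64), the iron-sulphur gene sdhb (-0.25, interval -0.54 to 0.04) and the other anchor gene sdhc (-0.10, interval -0.44 to 0.24) did not pass. Of the 3 assembly factors, sdhaf2, needed to attach flavin to sdha in mammals and yeast, stood at 6.82, 7.40 and 8.02 in hMYC-ER and at 8.80, 8.73 and 8.90 in hlk. The 3 hlk values lay close together above a wide hMYC-ER range, a difference of -1.37 (SE 0.24, adjusted p 0.00574), with 2.59-fold more signal in hlk. Both genes passed in all 9 fits that left out 1 array. The other factors gave 0.61 for sdhaf3 and -0.52 for sdhaf4, neither past the threshold.

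In complex III, 2 of 8 genes passed towards hMYC-ER and 0 towards hlk (25% in all, against 21.1% of all genes). The remaining 6 had differences between -0.10 and 0.14. The Rieske iron-sulphur protein gene uqcrfs1, one of the 2 nuclear-encoded redox subunits, was at 11.97, 12.11 and 12.25 in hMYC-ER (lowest, median, highest) and at 11.17, 11.32 and 11.82 in hlk. Array 9 came closest to the hMYC-ER range without reaching it, and the difference was 0.67 (SE 0.14, adjusted p 0.0144), or 1.59-fold. The other redox subunit gene, cyc1 for cytochrome c1, differed by 0.04 (interval -0.20 to 0.28). The hinge protein gene uqcrh, whose product sits beside cytochrome c1, was at 12.15, 12.35 and 12.90 in hMYC-ER and 12.03, 11.70 and 11.66 in hlk. Array 7 lay just under the lowest hMYC-ER array, and the difference of 0.65 (SE 0.18, adjusted p 0.0399) passed in 3 of the 9 fits without 1 array (without hMYC-ER array 1 or 5 or hlk array 7). Both calls ended under median centring (uqcrfs1 0.49, adjusted p 0.112; uqcrh 0.45, adjusted p 0.174), and both ended without hlk array 8 (0.61 and 0.60), which left 0 calls in the complex. The uqcrfs1 call had an adjusted p of 0.0504 there. The median of the complex, 0.04, turned to -0.14 under median centring and to -0.02 on the signals as deposited, where that of all genes was -0.18 and -0.07. The core protein genes uqcrc1 (-0.09), uqcrc2a (0.00) and uqcrc2b (0.14) had intervals within -0.30 and 0.38.

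Of the 14 complex IV genes 0 passed towards hMYC-ER and 3 towards hlk, and 11 of the 14 differences were negative. Over all 8793 genes 4943 differences were negative, with a median of -0.08. The median of -0.40 in the complex stayed negative under every alternative tried, between -0.50 and -0.23, and was -0.23 without hlk array 7. Less the median of all genes it was -0.32, and -0.27 under median centring, -0.25 on the signals as deposited and -0.21 without hlk array 7. The 3 called genes are 21.4% of the complex, against 21.1% called among all genes in either direction and 11.1% towards hlk. They include the supercomplex factor gene cox7a2l. Of the 13 structural subunits 2 passed (15.4%), with a median of -0.38. The hlk arrays were not alike, since the median deviation of these genes from the midpoint between the models was -0.43 to 0.02 on the hMYC-ER arrays and 0.50, -0.04 and 0.26 on hlk arrays 7, 8 and 9, so array 8 lay within the hMYC-ER range. No test was made of the complex as a group.

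The most different respiratory chain gene was cox6b1, for a subunit on the intermembrane side where complex IV units pair and cytochrome c docks. It had values of 9.37, 10.15 and 10.26 in hMYC-ER (lowest, median, highest) and of 13.55, 13.53 and 12.90 in hlk. More than 2 log2 units separated the groups, the difference was -3.29 (SE 0.23, interval -3.82 to -2.75, adjusted p 5.69e-05), and the signal was 9.77-fold higher in hlk. This call was kept under all 19 alternatives, with differences between -3.51 and -3.13. The gene had 1 probe set, so no other could be compared. Its relative cox6b2, named here after its values were seen, was at 13.56, 13.80 and 13.99 in hMYC-ER and at 14.79, 13.82 and 14.33 in hlk, a difference of -0.52 (interval -0.99 to -0.05) that did not pass (adjusted p 0.118) and overlapped. It was -0.27 (adjusted p 0.318) without array 7, its highest array, and passed at -0.75 (adjusted p 0.0190) without array 8.

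The matrix-side subunit gene cox5aa was at 12.87, 12.95 and 13.18 in hMYC-ER and at 13.86, 13.64 and 13.69 in hlk. The groups were separated, by -0.74 (SE 0.11, adjusted p 0.00245), or 1.66-fold towards hlk. Its duplicate cox5ab did not pass (0.31, interval -0.28 to 0.91), and its hlk values of 11.01, 11.74 and 12.36 spanned the whole hMYC-ER range of 11.85 to 12.24. Leaving out array 7 turned that difference to -0.03. The supercomplex factor gene cox7a2l, whose product links complexes III and IV in mammals, was at 10.96, 11.20 and 11.59 in hMYC-ER and at 11.91, 12.03 and 11.92 in hlk. These 3 hlk values were close together and above all hMYC-ER arrays, a difference of -0.72 (SE 0.15, adjusted p 0.0109). The related structural subunit gene cox7a2a differed by -0.18 (interval -0.68 to 0.33) and by 0.10 without array 7. Both cox5aa and cox7a2l passed in all 9 fits without 1 array.

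The cox4i1-like gene cox4i1l varied most within hlk, with 7.64 on array 7 and 11.62 and 11.31 on arrays 8 and 9, beside 7.47 to 10.29 in hMYC-ER. Its difference of -1.31 (interval -3.55 to 0.94) did not pass and was -2.56 without array 7, again without passing. The small subunit genes cox6c, cox7b, cox7c and cox8a had differences from -0.67 to -0.28. Of these cox8a had separated groups, at 12.66 to 13.29 in hMYC-ER and 14.05, 13.37 and 13.37 in hlk, but did not pass (adjusted p 0.0615).

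**Figure D2:**
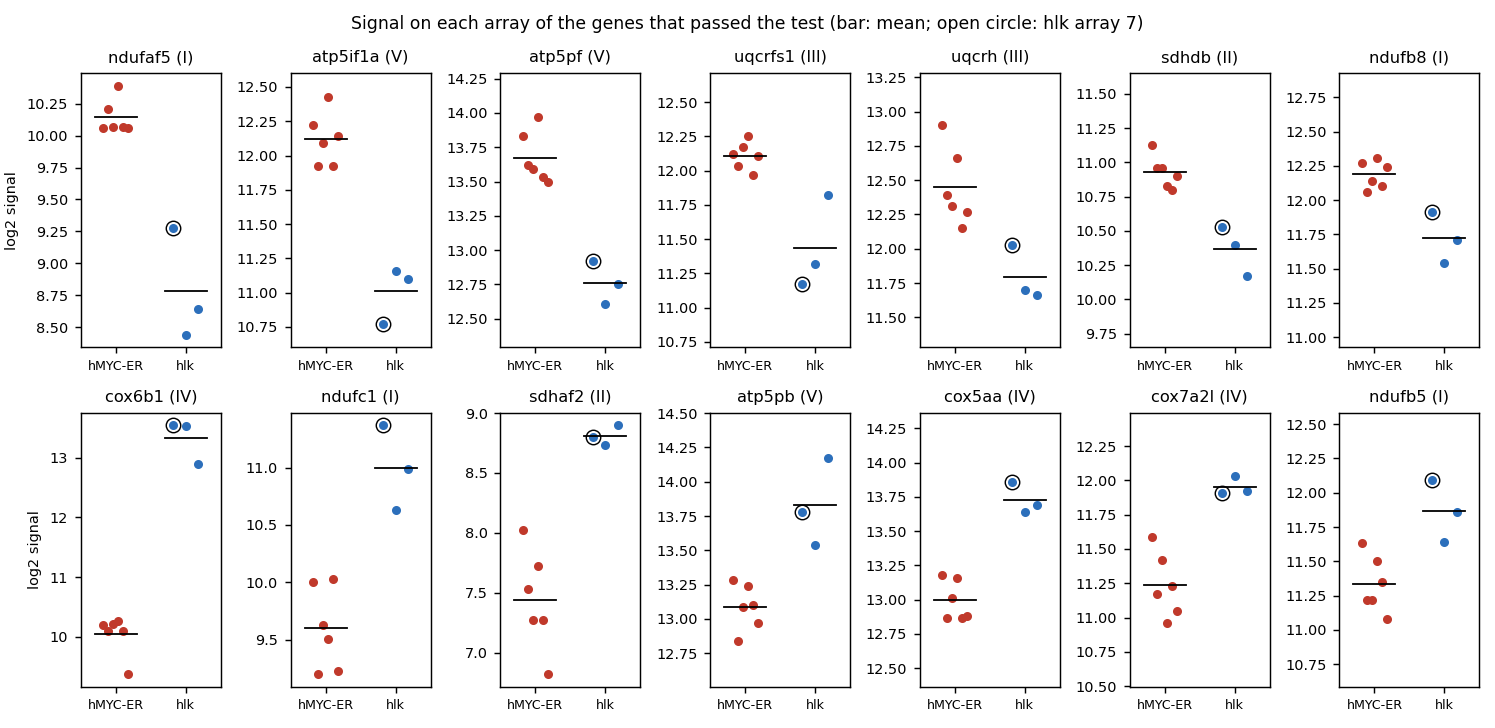
Signal on each array (y axis, log2; points, 6 hMYC-ER arrays in red on the left and 3 hlk arrays in blue on the right of each panel; bar, mean) of the 14 genes that passed, with the complex in parentheses. In the upper row all hMYC-ER values lie above all hlk values, in the lower row all lie below, and the open circle marks hlk array 7.

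In the ATP synthase, 2 of 18 genes passed towards hMYC-ER and 1 towards hlk (16.7% in all, against 21.1% of all genes). The median difference of -0.25 stayed negative in every alternative (-0.35 to -0.11) and was nearest 0, at -0.11, without hlk array 7. Over all genes the median was also negative, at -0.08, at -0.18 under median centring and at -0.03 without hlk array 7. Without that array 4 genes of the complex passed towards hMYC-ER and 1 towards hlk (27.8% in all, against 21.4% of all genes). The count towards hlk was 4 without hMYC-ER array 1, 3 with a floor of 64, 2 under 5 other settings and 0 at an adjusted p under 0.01. The alpha subunit gene shares its probe set with another gene in the annotation and is not among the members. The F1 part and the rotating c ring had no call. The 4 measured F1 genes were atp5f1b of the catalytic head and atp5f1c, atp5f1d and atp5f1e of the central stalk, which turns with the ring. These 4 and the 3 genes of the ring had small negative differences, -0.14 to -0.30 and -0.21 to -0.36. Array 7 was the highest of the 9 arrays for 5 of these 7 genes. Without array 7 the median of the 4 F1 genes was -0.18, against -0.30 on all arrays, with atp5f1c at -0.03 and atp5f1e at -0.09. The catalytic beta subunit gene atp5f1b was at 13.38 to 13.71 in hMYC-ER and at 13.72, 13.74 and 14 in hlk. Its groups did not overlap, by a very small margin, and the difference of -0.30 (interval -0.54 to -0.06) had an adjusted p of 0.0839.

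The peripheral stalk, which holds the head still while the ring turns, held calls in both directions. The coupling factor 6 gene atp5pf was at 13.50, 13.61 and 13.97 in hMYC-ER (lowest, median, highest) and at 12.92, 12.61 and 12.75 in hlk, which gave a difference of 0.91 (SE 0.13, adjusted p 0.00227), or 1.88-fold. The subunit b gene atp5pb was at 12.84, 13.10 and 13.28 in hMYC-ER and at 13.78, 13.54 and 14.17 in hlk, which gave a difference of -0.74 (SE 0.16, adjusted p 0.0133), or 1.67-fold towards hlk. Neither gene had overlapping groups, and both passed in all 9 fits without 1 array. The subunit d gene atp5pd differed by 0.08 (interval -0.27 to 0.44).

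The inhibitor genes encode the small protein that blocks the synthase from running backwards and hydrolysing ATP. For atp5if1a the values were 11.92, 12.12 and 12.43 in hMYC-ER and 10.77, 11.16 and 11.10 in hlk. All hMYC-ER arrays were well above all hlk arrays, and the difference of 1.11 (SE 0.14, interval 0.78 to 1.44, adjusted p 0.00128) is 2.16-fold and was kept under all 19 alternatives. Its duplicate atp5if1b was at 11.44, 11.74 and 12.04 in hMYC-ER and at 11.61, 11.23 and 10.59 in hlk, overlapping through array 7. The difference of 0.61 (interval 0.10 to 1.13) did not pass on all arrays (adjusted p 0.0979) and passed at 0.84 without array 7 (adjusted p 0.0314). The same held for atp5mj, a small membrane subunit gene, at 0.43 (adjusted p 0.219) on all arrays and 0.70 (adjusted p 0.0269) without array 7. The other 5 small membrane subunit genes did not pass, with atp5mea lowest at -0.79 (adjusted p 0.0547). Without hMYC-ER array 1, where it was highest in that model, atp5mea passed at -0.94 (adjusted p 0.00520).

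**Figure D3:**
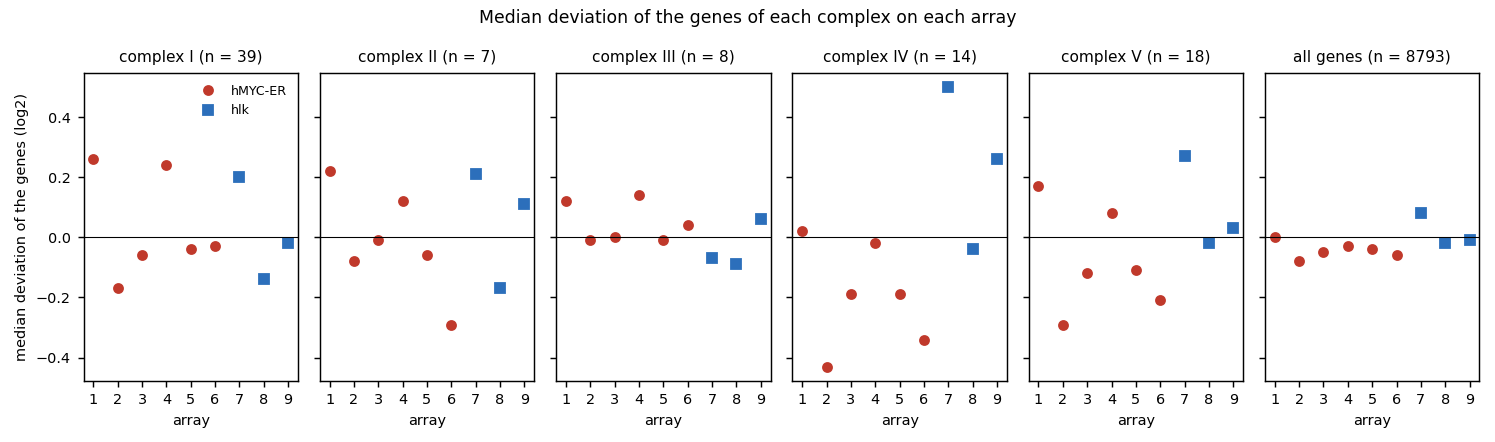
Median deviation of the genes of each complex on each array (y axis, log2 units from each gene's midpoint between the 2 model means; x axis, array number; red circles, hMYC-ER; blue squares, hlk), with all 8793 genes at the right. Arrays 1 and 4 of hMYC-ER and array 7 of hlk sit high for complexes I, II and V, and array 7 is highest for complex IV at 0.50.

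Arrays of the same model differed in the overall level of these genes. Measured from each gene's midpoint between the models, the median deviation of the 86 genes was 0.18, -0.19, -0.09, 0.14, -0.07 and -0.14 on hMYC-ER arrays 1 to 6, and 0.21, -0.11 and 0.03 on hlk arrays 7 to 9. Over all genes the same measure stayed between -0.08 and 0.00 in hMYC-ER and between -0.02 and 0.08 in hlk. Arrays 1 and 7 were the highest of their models, and they also had the 2 highest gapdhs ratios of 3' to 5' signal, 4.50 and 50.8. The ratios were 2.34, 2.61, 2.43, 2.77 and 2.24 on hMYC-ER arrays 2 to 6, and 2.20 and 2.40 on hlk arrays 8 and 9. Array 4, next highest in hMYC-ER at 0.14, thus had a lower ratio than arrays 3 and 5, at -0.09 and -0.07. The part of RNA quality was not tested. Array 7 had the highest of the 9 values for 32 of the 86 genes (37.2%, against 24.6% of all genes), including 9 of 14 in complex IV, 9 of 18 in complex V and 0 of 8 in complex III, and the lowest value for 10 (11.6%, as for all genes). Within models the genes varied little, with a median SD of 0.20 in hMYC-ER and 0.30 in hlk, against 0.33 and 0.43 over all genes. Signal level was not matched here either.

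**Figure D4:**
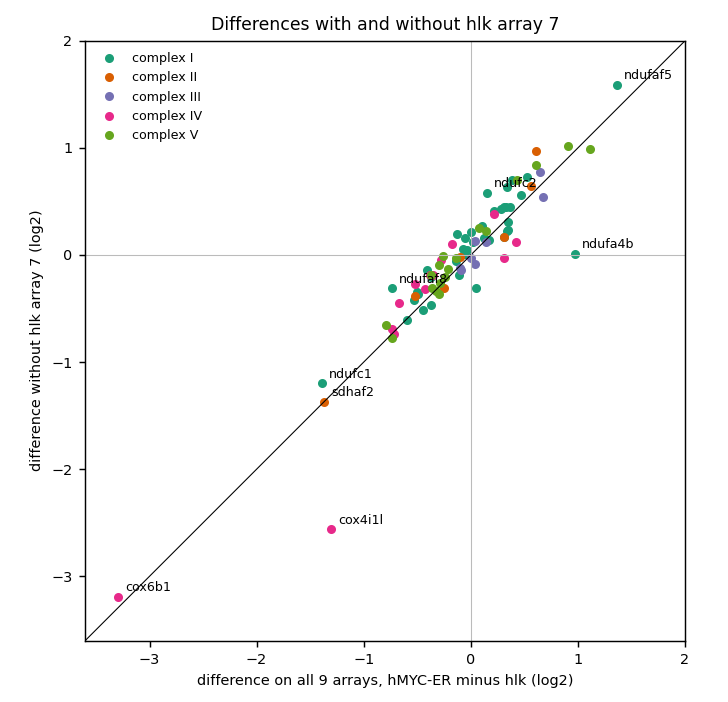
Difference of each gene without hlk array 7 (y axis) against the difference on all 9 arrays (x axis), both hMYC-ER minus hlk in log2 units, coloured by complex; the line marks equal values. Many genes lie close to the line, while cox4i1l (-1.31 against -2.56) and ndufa4b (0.97 against 0.01) lie far below it.

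Genes of neighbouring functions, mostly mitochondrial, were taken from 5 lists that hold none of the 86. The share of measured genes that passed is given for each, to be read beside the 21.1% of all genes (10% towards hMYC-ER and 11.1% towards hlk), and no test compared the lists. Of 21 measured assembly and biogenesis factors outside the symbol rule (42 listed), 3 passed towards hMYC-ER and 2 towards hlk (23.8% in all), with a median of 0.01. The gene coa3b, related to a complex IV assembly factor, was at 8.25 to 9.06 in hMYC-ER and 10.55, 9.64 and 9.52 in hlk (-1.30, adjusted p 0.0108). The complex I assembly factor gene tmem126a was at 10.33 to 11.26 in hMYC-ER and 9.57, 9.97 and 9.62 in hlk (1.05, adjusted p 0.0128). The complex III factor gene uqcc2 was higher in hlk (-0.65, adjusted p 0.0204) and did not pass without array 7 (-0.50, adjusted p 0.0566). The count of factors higher in hMYC-ER was 1 without any 1 of hMYC-ER arrays 2, 5 and 6 or hlk array 8, and that higher in hlk was 1 without hlk array 7.

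Among 15 measured genes of mobile carriers and electron entry (26 listed), 3 passed towards hMYC-ER and 2 towards hlk (33.3% in all), with a median of 0.08. They included the ubiquinone biosynthesis kinase-like gene coq8aa (0.90, adjusted p 0.00416) and dhodh, for the pyrimidine enzyme that feeds electrons to ubiquinone (0.84, adjusted p 0.00900), both higher in hMYC-ER. The ubiquinone-binding protein gene coq10a was higher in hlk (-1.35, adjusted p 0.00555). The cytochrome c gene cycsb did not pass (0.40, adjusted p 0.237). The count higher in hlk was 4 without hMYC-ER array 1 and 1 without hlk array 8.

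Of 27 measured genes of the citrate cycle and pyruvate entry (37 listed), 6 passed towards hMYC-ER and 3 towards hlk (33.3% in all), with a median of 0.24. The list includes genes of cytosolic enzymes, mdh1aa, mdh1ab and aco1. Of these mdh1ab is among the 6, with the largest difference of the list (2.32, adjusted p 0.0170), and its call ended without hlk array 7 or 8. The succinyl-CoA ligase gene suclg2 was at 11.47 to 12.08 in hMYC-ER and 10.18, 10.15 and 10.53 in hlk (1.43, adjusted p 6.99e-04). Fumarase, encoded by fh and acting just after complex II, was at 11.10 to 11.54 in hMYC-ER and 10.38, 9.67 and 10.06 in hlk (1.29, adjusted p 0.00118). The oxoglutarate dehydrogenase component gene dlst had a difference of 0.59 (adjusted p 0.00476). The genes suclg2, fh and dlst passed in the 9 fits without 1 array. The 3 genes higher in hlk were pdhx (-0.92, adjusted p 0.0224), mdh2 (-0.54, adjusted p 0.0232) and idh2 (-1.02, adjusted p 0.0380). Of the 9 fits, pdhx and mdh2 each passed in 7 and idh2 in 1. The count higher in hMYC-ER was 3 to 6 in these fits, and 3 without hlk array 7 or hlk array 8. That higher in hlk was 1 to 2 in them, and 1 without hMYC-ER array 3.

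Of 14 measured regulators of mitochondrial genes and mitochondrial DNA (25 listed), 0 passed towards hMYC-ER and 2 towards hlk (14.3% in all), with a median of -0.16. These were nrf1, for a transcription factor of respiratory genes (-0.77, adjusted p 0.0161), and polg2, for the accessory subunit of the mitochondrial DNA polymerase (-0.67, adjusted p 0.0429). The nrf1 call ended without hlk array 8 or 9 (adjusted p up to 0.0581), and polg2 passed in 2 of the 9 fits without 1 array. The count towards hlk was 0 without hlk array 8 and 1 without any 1 of hlk array 9 and hMYC-ER arrays 1, 2, 3, 5 and 6. The mitochondrial transcription factor gene tfam did not pass (0.48, adjusted p 0.580). Of 16 measured genes of nucleotide exchange, channels and membrane shape (23 listed), 2 passed towards hMYC-ER and 1 towards hlk (18.8% in all), with a median of 0.14. The inner membrane fusion gene opa1 (1.19, adjusted p 0.00253) and the porin gene vdac3 (1.75, adjusted p 0.0230) were higher in hMYC-ER and the prohibitin gene phb2b in hlk (-1.54, adjusted p 0.00357). The vdac3 call ended without hlk array 7 (1.35, adjusted p 0.0739) or 9, which left 1 gene towards hMYC-ER without array 9, and the count higher in hlk was 2 without hMYC-ER array 1 or hlk array 9.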

How the data were processed

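Biotin-labelled cRNA from 100 ng of total RNA was hybridised to 1 Affymetrix zebrafish array per sample, per the labels' protocols. The deposited table holds linear intensities. Their trimmed mean (2% off each end) is 500.1 or 500.2 on every array, so the values themselves show a common scaling. No source used here names the summary algorithm. Since the medians of the log2 arrays spanned 0.31, above the limit of 0.1, the deposited intensities were quantile normalized over all 15617 probe sets, values under 16 were set to 16, and log2 was taken. The 115 control probe sets were then left out and 15502 were tested with limma 3.58.1 in R 4.3.3 (lmFit, eBayes), all 9 arrays, no covariate, hMYC-ER minus hlk, Benjamini-Hochberg adjustment over all of them, threshold 0.05. The fit was tested on simulated data whose planted differences were all larger than most of those called here. That run does not bear on smaller differences. The number of arrays limits the precision. Gene symbols came from the platform annotation, in which 10795 tested probe sets have 1 symbol, 135 several and 4572 none, and those of the members were checked against RefSeq through the Entrez identifier. Of the member genes, 6 had more than 1 probe set, and these 6 did not pass. Each of the 14 genes that passed had 1 probe set, so its difference could not be checked on another.

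Genes named are all members past the threshold (14), those that pass only without hlk array 7 (5), their duplicates by symbol, and up to 3 passing genes per related list by smallest p. Any other gene named was chosen after its values were seen. The members and lists were chosen with earlier results of these data known. Alternatives were median centring, the signals as deposited, floors of 1 and 64, leaving out the dimmest probe sets, array weights, a robust prior with an intensity trend, averaging each gene's probe sets, adjustment over 1 probe set per gene, an adjusted p under 0.01, and leaving out each array. Figures used Python 3.11.15 and matplotlib 3.10.9.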

Additional observations from a re-analysis of the deposited data

Results flagged for a closer look

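On the 6 hMYC-ER arrays, 4 of the 86 genes had 1 array far from the other 5, by Dixon's criterion. Chance flags about 1 in 20 groups, and 4 of 86 is near that share. The gene cox6b1 was at 9.37 on array 6 and at 10.10 to 10.26 on the other 5, so that array lies farther from hlk than the rest of its model. The ATP synthase gene atp5mea was at 13.01 on array 1 and at 11.98 to 12.32 on the others, and cox5ba, for a complex IV subunit, at 13.41 on array 1 and at 13.05 to 13.18 on the others. The complex III gene uqcrc2b was at 11.79 on array 4 and at 11.41 to 11.53 on the others.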

How the results depend on the processing

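Of the 14 genes that passed, 13 also passed without hlk array 7, 10 in all 9 fits that left out 1 array, and 7 under every alternative; no called gene changed direction. The count higher in hMYC-ER, 7 in the reported fit, was 4 under median centring, 3 with a floor of 1, 4 at an adjusted p under 0.01 and 4 to 12 when 1 array was left out. The count higher in hlk, also 7, was 4 at an adjusted p under 0.01 and 6 to 11 when 1 array was left out. The median difference of -0.06 was -0.21 under median centring. That setting also moved the median of all genes from -0.08 to -0.18, with 769 of them higher in hMYC-ER and 1102 in hlk, against 881 and 978. Among named genes that did not pass, cox5ab ran from -0.03 to 0.64 and cox7a2a from -0.39 to 0.10 when 1 array was left out, each changing sign without hlk array 7. The stricter threshold can only lower the counts. Fits without 1 array also have fewer samples, and the cause of the other shifts was not tested. With a floor of 1 the calls of ndufb5, ndufb8, sdhdb, uqcrfs1 and uqcrh ended. Their differences stayed at -0.53, 0.47, 0.56, 0.67 and 0.65 in that order, as in the reported fit. No paired analysis was possible because the models share no sample number. The number of arrays, 6 and 3, limits the precision of small differences.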
